A study of Mus musculus with 8 samples.

Results

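Astrocytes of the mouse cortex were described here across laminin knockouts. A cell counted as an astrocyte where the summed UMIs of Slc1a2, Aqp4, Gja1, Ntsr2 and Aldoc reached 30 per 10000 UMIs of the cell (CP10k). The same cell also had to stay under 20 CP10k in each of 4 sums that mark other cells: Cldn5, Flt1 and Pecam1 for endothelium, C1qa, C1qb and Ctss for microglia, Vtn and Acta2 for mural cells, and Mag, Mog, Mobp and Cldn11 for oligodendrocytes. The rule found 1846 astrocytes among 50254 kept cells (3.67%), which were drawn from 56961 deposited barcodes. A further 322 cells reached the astrocyte sum and failed another sum, 166 of them the endothelial and 121 the microglial one. The members were thus chosen by the measured UMIs of these 17 genes, and nothing is read from their own differences. A UMI is a counted mRNA molecule.

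The series was made from 8-week-old mice of 4 groups: Lama4-/- mice, WT mice kept as their control, Tek-Cre:Lama5-/- mice, and a separate WT control for these. The controls are called the Lama4-control WT and the Lama5-control WT below, and the mutants the Lama4 knockout and the Lama5 knockout. Lama4 and Lama5 encode laminin alpha chains of the vascular basement membrane. Tek-Cre recombines in the endothelial lineage, so the Lama5 gene of astrocytes was not the target, while the Lama4-/- label names no cell type. The brain cortical plate of 3 mice was pooled for each group, and each group has 2 samples. Both Lama4-/- samples hold identical values and were counted as 1 library, which leaves 7 libraries and no test for that genotype. The libraries of a group share a pool, so every p-value compares pools and does not cover the spread between mice.

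Astrocytes are the glia that clear glutamate, GABA and potassium from around synapses, make and export cholesterol and lipoproteins, and store glycogen. Their endfeet cover the vessels and meet the laminins of the basement membrane, where the water channel Aqp4 and the potassium channel Kcnj10 are held by dystroglycan, dystrobrevin and syntrophin. Most cortical astrocytes hold little Gfap, the intermediate filament protein, whereas those at the brain surface and in white matter hold much more, together with Vim, S100a6 and, at the surface, Myoc.

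Promoters are shown for Gfap, Myoc and S100a6, surface astrocyte genes that the Lama5 results turn on; they were picked after their values were seen. Each runs from 250 bases before to 10 bases after the RefSeq transcription start on GRCm38.p6, 5′ to 3′ on the gene's strand. Capitals mark a TTCNNNGAA match, the palindrome bound by STAT factors, or a TATAAA match, the core of the TATA box. Both strands were searched, and the 2 motifs did not overlap in these windows. Gfap lies at chr11:102897191-102897450 (minus strand), Myoc at chr1:162638900-162639159 (plus strand) and S100a6 at chr3:90612644-90612903 (plus strand).
Gfap: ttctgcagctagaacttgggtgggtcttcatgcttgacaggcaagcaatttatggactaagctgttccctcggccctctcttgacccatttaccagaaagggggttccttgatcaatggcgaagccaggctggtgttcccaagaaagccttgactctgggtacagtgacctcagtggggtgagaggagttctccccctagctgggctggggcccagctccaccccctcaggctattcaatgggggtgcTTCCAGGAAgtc
Myoc: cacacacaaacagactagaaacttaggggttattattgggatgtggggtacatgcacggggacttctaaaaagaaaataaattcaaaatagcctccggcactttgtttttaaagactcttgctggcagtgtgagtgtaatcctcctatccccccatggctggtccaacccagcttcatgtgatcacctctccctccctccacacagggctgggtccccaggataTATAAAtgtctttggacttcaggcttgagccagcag
S100a6: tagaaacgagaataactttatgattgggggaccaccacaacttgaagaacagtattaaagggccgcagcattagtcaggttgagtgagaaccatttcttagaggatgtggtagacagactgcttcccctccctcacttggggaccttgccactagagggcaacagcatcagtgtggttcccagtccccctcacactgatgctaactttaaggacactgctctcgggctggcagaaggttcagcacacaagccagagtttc
The Gfap window held 1 TTCNNNGAA, which begins 2 bases before the start. The Myoc window held 1 TATAAA, which begins 26 bases before the start, and the S100a6 window held neither. Among 32851 RefSeq promoter windows of 260 bases, 7.33% held TTCNNNGAA and 12.66% held TATAAA; a match is no evidence of binding.

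The libraries differed in depth and in RNA of other cells, which touches the results that follow. The astrocytes held 7601805 UMIs in all, and the median astrocyte 2904 UMIs. By library the median was 3802.5 and 5639.5 UMIs in the Lama4-control WT, 5533 in the Lama4 knockout, 2133 and 1955 in the Lama5-control WT, and 1123 and 1435 in the Lama5 knockout. The summed level of 16 astrocyte markers, the 5 of the rule among them, ran from 18897 to 25202 UMIs per 1000000 (CPM) in the astrocytes and from 334 to 529 CPM in all other kept cells. The summed level of 9 microglial markers in astrocytes was 204 and 230 CPM in the Lama5-control WT against 567 and 475 CPM in the Lama5 knockout. The 5 choroid plexus markers summed to 4.46 and 7.98 CPM in that WT against 216 and 163 CPM in its knockout, and to 186 and 328 CPM in the other WT against 1291 CPM in the Lama4 knockout. The 6 ependymal markers, of cells that line the ventricles, summed to 160 and 471 CPM in the Lama5-control WT and to between 53.6 and 78.3 CPM in the 5 other libraries. No barcode was shared by astrocytes of any pair of libraries. Of the 13 marker lists, 11 had every gene above 0 in the astrocytes of at least 1 library; Neu4 of the oligodendrocyte precursor list and Lum of the fibroblast list were at 0 in all.

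**Figure D1:**
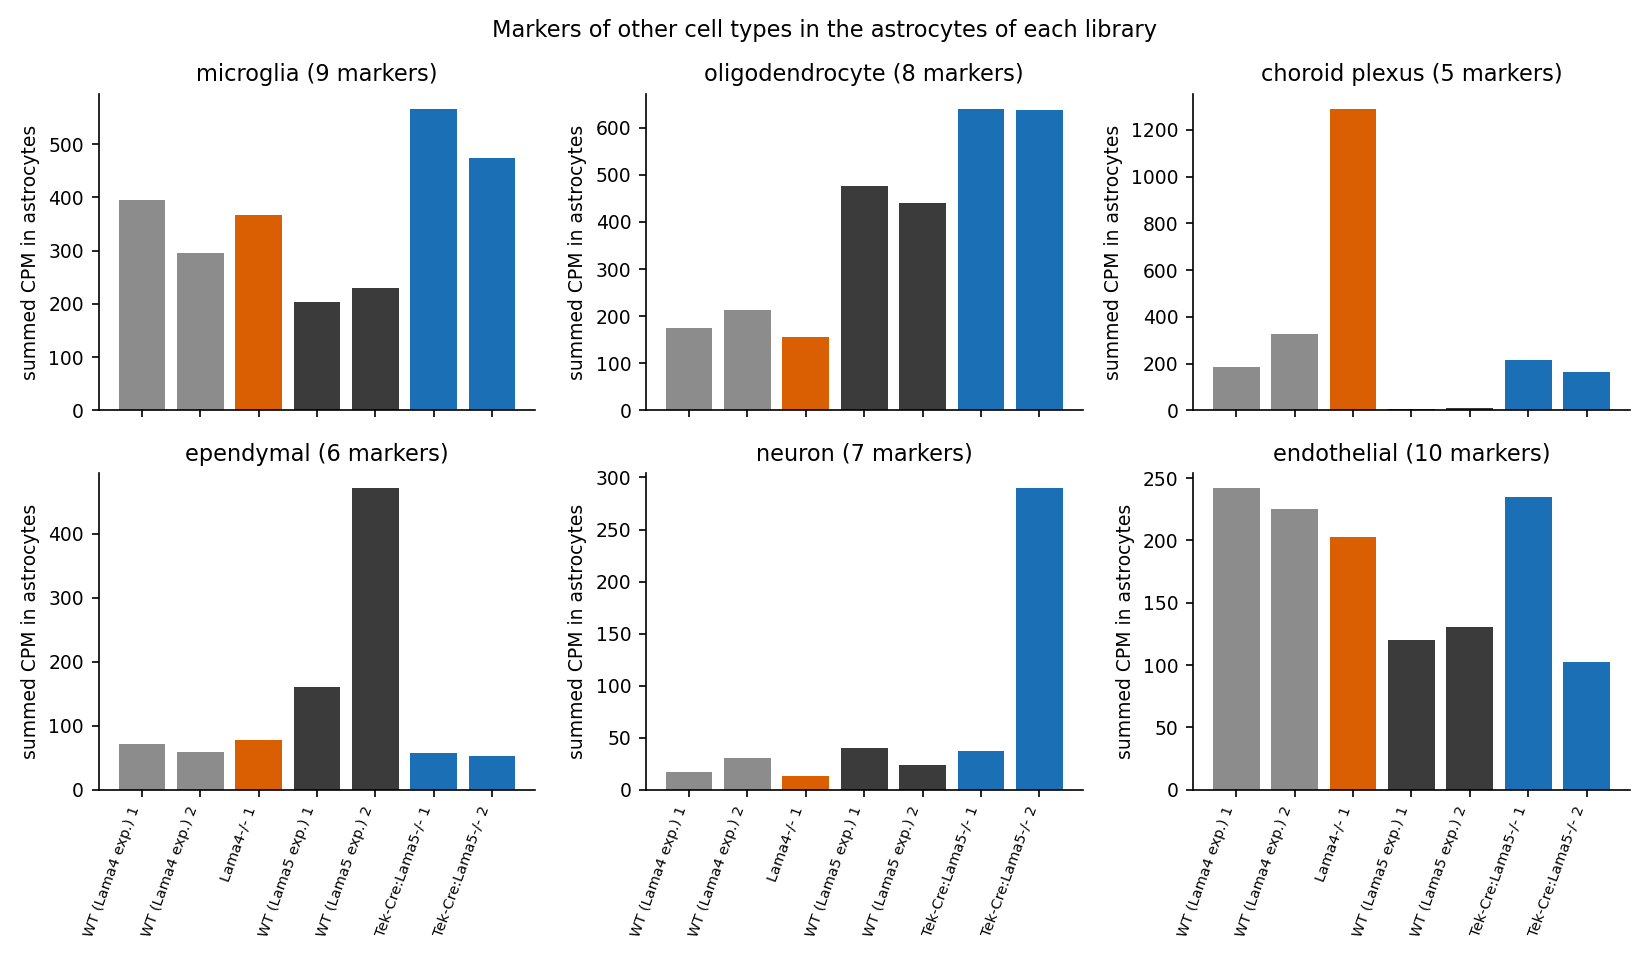
Bars give the summed CPM of the markers of 6 other cell types (y axes) in the astrocytes of each of the 7 libraries (x axis; grey and black WT, orange Lama4 knockout, blue Lama5 knockout). Microglial markers were at 204 and 230 CPM in the Lama5-control WT and at 567 and 475 CPM in its knockout, choroid plexus markers reached 1291 CPM in the Lama4 knockout, and ependymal markers reached 471 CPM in a WT library.

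Genes outside the rule also marked these cells as astrocytes. Named here are the 15 genes that had the highest ratio of the astrocyte level to that of all other kept cells among 1117 genes at 100 CPM or more in the astrocytes of every library. The ratios are a description with no test, since the selection sets both sides. Cldn10, a claudin, led at 172-fold in the median library, with 905 to 1347 CPM in astrocytes. The heparan sulfate proteoglycan Gpc5 followed at 170-fold and Ppp1r3g, a glycogen-targeting subunit of protein phosphatase 1, at 160-fold. Transcription factors of the glial lineage stood at like ratios, Dbx2 at 146-fold and the Notch target Hes5 at 143-fold. So did Dio2, which activates thyroid hormone, at 127-fold, the GABA transporter Slc6a11 at 109-fold and the connexin Gjb6 at 120-fold. The matrix genes Hapln1 and Bcan, which build the perisynaptic net, were at 119-fold and 109-fold. Acsbg1, a fatty acyl-CoA synthetase, was at 122-fold. The other 4 were 2900052N01Rik, Btbd17, the chemokine Cxcl14 and the synaptic adhesion protein Slitrk2, at 124-fold to 152-fold. Levels are compared here between cells, not between genes.

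**Figure D2:**
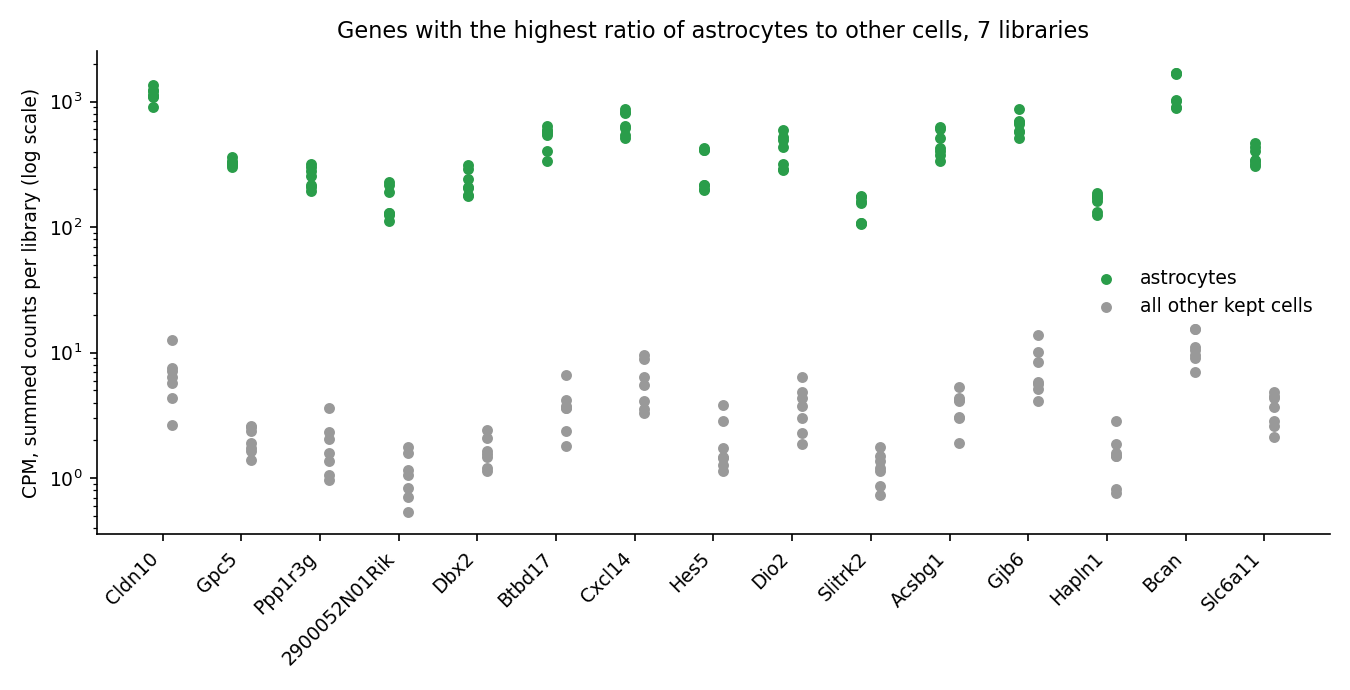
Each dot is 1 library, with the CPM of summed counts on a log scale (y axis) in astrocytes (green) and in all other kept cells (grey) for the 15 genes with the highest ratio (x axis). In every library the astrocyte dots of a gene sit above all of its grey dots, as for Cldn10 at 905 CPM or more.

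At the threshold the rule had few cells: 50 cells lay just outside, at 25 to 30 CP10k, and 28 just inside, at 30 to 35 CP10k, while 1669 astrocytes (90.4%) were above 60 CP10k. The median sum was 137 CP10k. By number, 598 astrocytes (32.4%) had under 1500 UMIs.

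Astrocytes made up a smaller share of cells in the Lama5 knockout than in its WT. The share was 3.28% (95% exact interval 2.92 to 3.68) and 3.80% (3.40 to 4.23) in the WT libraries, and 2.34% (2.03 to 2.69) and 2.26% (1.95 to 2.59) in the knockout libraries. Both knockout libraries lay below both WT libraries. The means were 2.30% ± 0.0583 (SD, n = 2) and 3.54% ± 0.364 (SD, n = 2), a difference of -1.24 percentage points. The exact two-sided permutation test gave p = 0.333, the smallest that 2 against 2 libraries can give. The intervals cover counting error only. Cells that reached the astrocyte sum and failed another sum numbered 38 and 48 in the WT libraries and 43 and 63 in the knockout libraries. The microglial sum was failed by 9 and 11 of those WT cells and by 25 and 27 of those knockout cells. The part of these exclusions in the share was not tested.

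The share was lower in the knockout libraries in each of 3 depth classes. Of kept cells with 5000 UMIs or more, 1.92% and 2.23% were astrocytes in the WT libraries against 0.446% and 0.546% in the Lama5 knockout libraries. From 1500 to 5000 UMIs the shares were 2.60% and 2.57% against 1.13% and 1.45%. Below 1500 UMIs they were 15.3% and 19.1% against 14.8% and 10.0%. In no class did the groups overlap, but no intervals were made for the classes. Below 1500 UMIs, 126 of 850 cells in the first knockout library stood close to 97 of 632 in the first WT library. The deep class holds 10 and 11 astrocytes in the knockout libraries and 63 and 67 in the WT libraries.

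In the Lama4 experiment the share was 5.04% (4.48 to 5.65) and 4.76% (4.21 to 5.37) in the WT libraries and 5.92% (5.30 to 6.59) in the knockout library. The difference was 1.02 percentage points, with an SD between the WT libraries of 0.196, and there is no replicate of the knockout. Of the 317 astrocytes of that library, 100 held 20 CP10k or more of choroid plexus markers, against 5 and 5 in its WT libraries. With astrocytes that carried markers of other types left out of the count, the difference was -0.650 points. All kept cells stayed in the denominator and were not filtered alike, so that value is not a like-for-like share.

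**Figure D3:**
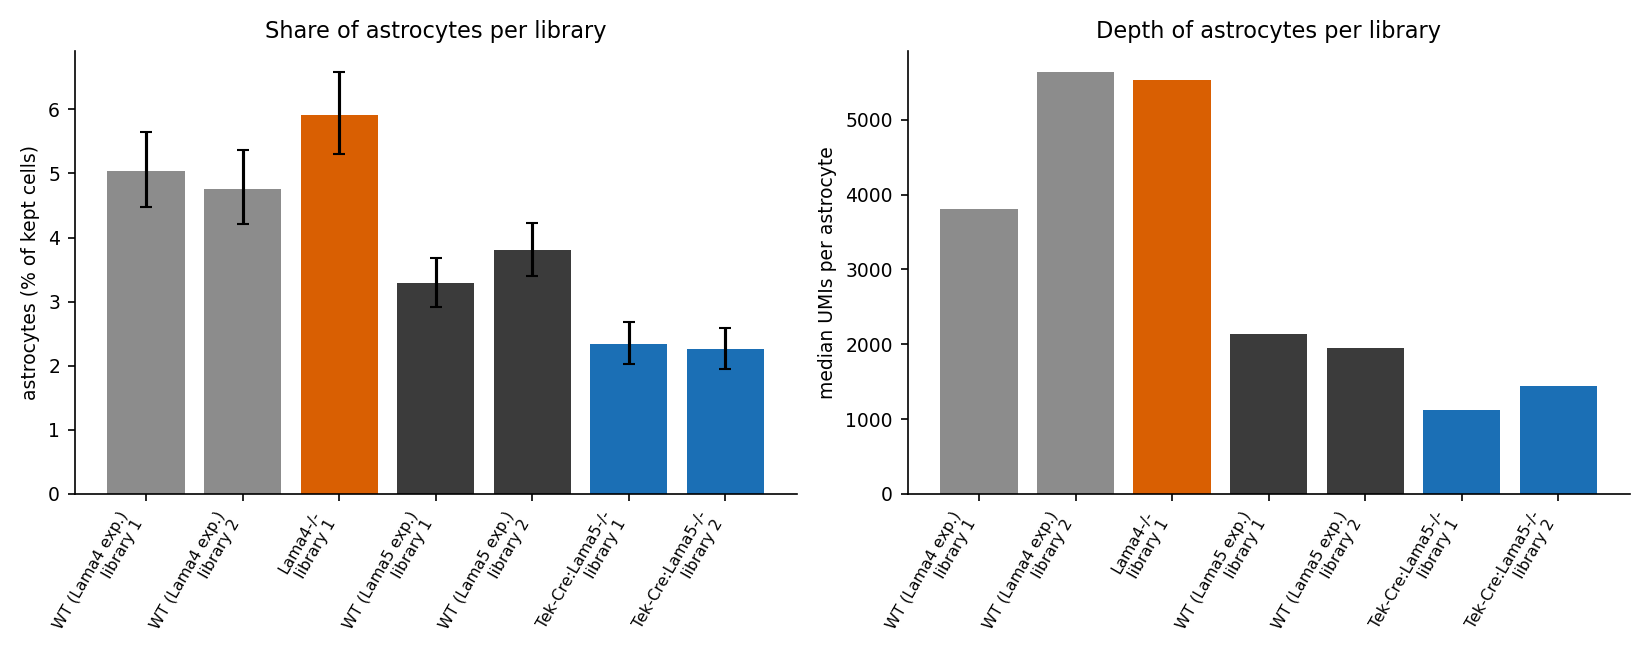
The left panel gives astrocytes as a percent of kept cells per library (bars) with exact 95% binomial intervals, and the right panel the median UMIs per astrocyte. The Lama5 knockout libraries, at 2.34% and 2.26%, sit below their WT libraries at 3.28% and 3.80%, and their astrocytes hold 1123 and 1435 UMIs at the median.

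The targeted genes were near 0 in astrocytes of every library, so their labels could be checked only in endothelial cells. Lama4 was at 0 to 7.31 CPM in astrocytes, at 46.0 and 44.4 CPM in endothelial cells of its WT libraries, and at 0.0576 CPM (1 count) in those of the Lama4 knockout. Lama5 was at 2.44 to 11.1 CPM in astrocytes. In endothelial cells it was at 42.9 and 41.9 CPM in the WT and 23.3 and 24.9 CPM in the Lama5 knockout, both knockout libraries below both WT libraries and neither near 0.

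Counts were summed over the astrocytes of each library and tested with edgeR's quasi-likelihood test, with p-values adjusted by the Benjamini-Hochberg method over all genes tested. In the Lama5 knockout 177 of 8118 genes (2.18%) passed at an adjusted p of 0.05, 88 of them higher (1.08%) and 89 lower (1.1%). Of the 177, 3 are genes of the rule (Aqp4, Aldoc and C1qa), from which nothing is read. The count was 70 without the second WT library, 341 without the second knockout library and 59 with DESeq2. In cells thinned to 1500 UMIs each it was 9, namely Id3, Clu, Lars2, Fos, Gm26917, Gm42418, AY036118, Ttr and the rule gene Aqp4, so the other calls named below were not past the threshold there. Without the genes of the rule, 48 of 87 lower calls (55.2%) stood at over 2-fold their level in other cells, against 25.9% of the 8104 genes tested. Of the 87 higher calls, 36 (41.4%) stood under 0.5 of their level in other cells, against 12.5% of the genes tested. Among the higher calls were the microglial markers Csf1r and Tmem119, as well as the choroid plexus marker Ttr and the neuronal gene Snap25. Ttr had 0 counts in both WT libraries and 78 and 63 in the knockout libraries, at least 113-fold higher against a floor of 3 counts over the WT libraries. The part of RNA from other cells in the higher calls was not tested.

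Genes of surface and fibrous astrocytes were lower in the Lama5 knockout. The list of 12 genes outside the rule had 10 that passed the filter on low counts; Igsf1 and Crym did not. Of the 10, 6 fell and 0 rose, against 1.1% of all genes tested that fell. The median log2 fold change was -0.90 against 0.00268 over all genes tested. The genes that fell were Gfap, Myoc, S100a6, Vim, Id3 and Fabp7. Myoc had 0 counts in both knockout libraries and passed the filter through the WT libraries alone, so it adds no support to the count of 6. The count was 3 with at least 1000 genes and under 10% mitochondrial UMIs a cell, 3 without the 5% of cells with the most UMIs, 1 in thinned cells and 5 to 7 in the other 12 alternatives.

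Gfap (chromosome 11, 102887336 to 102900912 on GRCm38) was at 304 and 370 CPM in the Lama5-control WT and at 60.7 and 63.3 CPM in the knockout libraries. The knockout libraries were low and the groups did not overlap. The log2 fold change was -2.45 (SE 0.194; edgeR's quasi-likelihood test, adjusted p = 3.07e-09). In sums over cells, fewer Gfap-rich cells and less Gfap per cell cannot be told apart, so the cells were also counted. Cells with 5 or more Gfap UMIs numbered 12 of 281 and 20 of 324 in the WT libraries (4.27% and 6.17%) and 1 of 195 and 0 of 193 in the knockout libraries (0.513% and 0%). Pooled, the shares were 5.29% (exact 95% interval 3.65 to 7.38) and 0.258% (0.00653 to 1.43). These shares are not matched for depth, which was lower in the knockout, and the intervals cover counting error only. The most Gfap UMIs in a cell were 57 and 39 in the WT against 5 and 3 in the knockout. Any Gfap UMI was found in 19.9% and 20.7% of WT astrocytes and in 5.64% and 9.33% of knockout astrocytes. After each cell was thinned to 1500 UMIs, which kept 184 and 191 WT and 69 and 91 knockout astrocytes, the shares were 16.3% and 17.8% against 5.80% and 12.1%. The exact intervals of the knockout were 1.60 to 14.2 and 6.19 to 20.6, and those of the WT 11.3 to 22.5 and 12.7 to 24.0, so the second knockout library overlapped both. In endothelial cells of these 4 libraries thinned alike the shares were 0.0437% to 0.238%. With thinned cells the log2 fold change was -1.41 (edgeR's quasi-likelihood test, adjusted p = 0.0504).

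Myoc (chromosome 1, 162639155 to 162649693 on GRCm38), which encodes the secreted protein myocilin, sat in few cells. Its counts were 46 and 161 in the WT libraries, from 2 and 4 cells, and 0 and 0 in the knockout libraries. In the first WT library 1 cell held 45 of the 46 counts. Against a floor of 3 counts over the knockout libraries Myoc was at least 28.7-fold lower (pooled WT level 109 CPM). That bound counts UMIs, which came from 6 WT cells. By cells, 6 of 605 WT astrocytes (0.992%, exact 95% interval 0.365 to 2.15) held Myoc, and 0 of 388 knockout astrocytes did, which allows a share of cells with a Myoc UMI of up to 0.773%. The exact interval of the knockout ran up to 0.946% and overlapped that of the WT, so a lower share of Myoc cells was not detectable with these numbers of cells. The shares count cells with a Myoc UMI and are not matched for depth. In the Lama4 experiment 525 and 631 counts came from 6 and 6 WT cells and 474 from 5 knockout cells. Those cells also held 62.6%, 65.5% and 65.3% of all Gfap counts of their libraries, against 8.06% and 21.8% in the Lama5-control WT.

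S100a6 (chromosome 3, 90612882 to 90624181 on GRCm38), a calcium-binding protein, was at 206 and 289 CPM in the WT libraries and 55.4 and 70.6 CPM in the knockout libraries, with no overlap. Its log2 fold change was -1.98 (SE 0.22; edgeR's quasi-likelihood test, adjusted p = 2.29e-06). The change in astrocytes differed from that in endothelial cells of the same libraries by -2.04 (edgeR's quasi-likelihood test of the interaction, adjusted p = 1.21e-14). Of genes tested for that interaction, 258 of 14427 passed (1.79%), 64 with a higher change in astrocytes (0.444%) and 194 with a lower one (1.34%). For Gfap the interaction was -1.47 (edgeR's quasi-likelihood test, adjusted p = 0.0901).

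Vim, an intermediate filament protein, was at 215 and 257 CPM in the WT and 73.8 and 114 CPM in the knockout (log2 fold change -1.32; edgeR's quasi-likelihood test, adjusted p = 0.000165). Vim is also made by endothelial and mural cells, and its level in other kept cells stood above that in astrocytes. Id3, an inhibitor of basic helix-loop-helix factors, was at 608 and 551 CPM against 340 and 297 CPM. Its log2 fold change was -0.87 (edgeR's quasi-likelihood test, adjusted p = 0.000161), and it passed in all 15 alternatives run. Id3 was also found in more endothelial cells than astrocytes. After thinning, 85.8% and 86.3% of WT endothelial cells held it, against 36.4% and 37.2% of WT astrocytes. The part of endothelial RNA in its value was not tested. Fabp7, a brain fatty acid binding protein, was at 702 and 581 CPM against 327 and 480 CPM (-0.67; edgeR's quasi-likelihood test, adjusted p = 0.00829). With cells of at least 1000 genes and under 10% mitochondrial UMIs its log2 fold change was 0.032. In all 3 genes both knockout libraries were below both WT libraries. The 4 that did not pass were Thbs4 (log2 fold change -0.93), Cd9 (-0.35), Igfbp5 (-0.24) and the metallothionein Mt1 (-0.10).

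**Figure D4:**
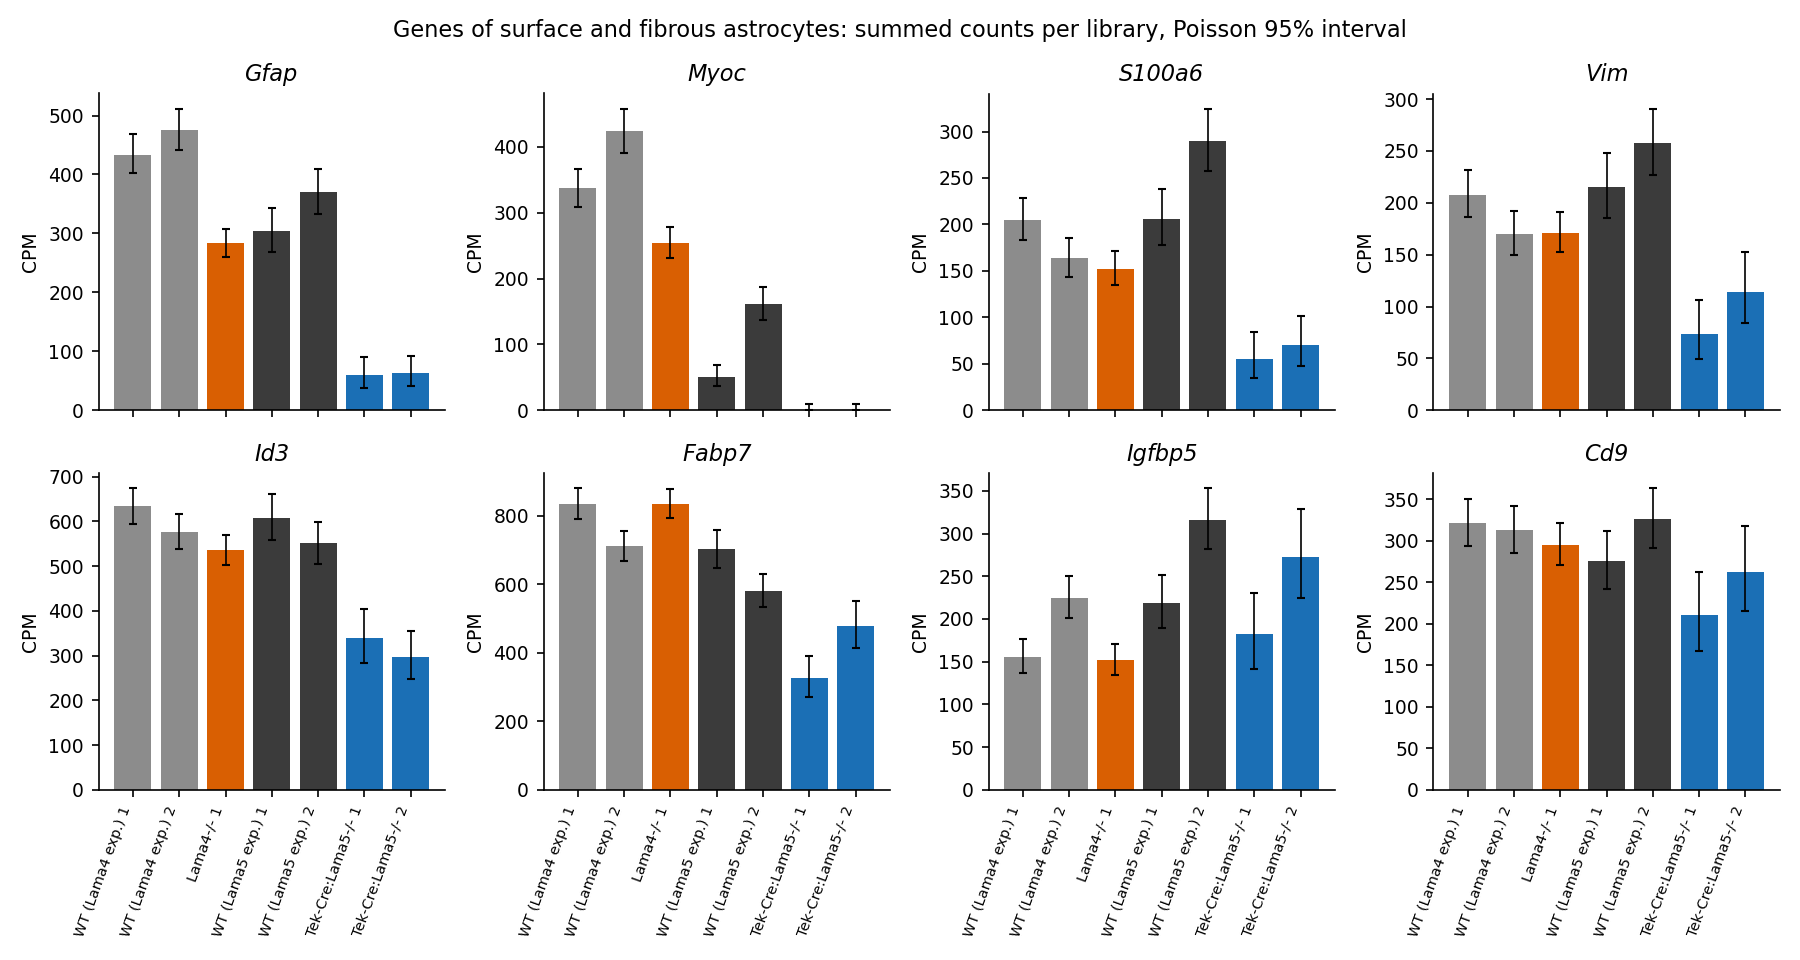
Bars give the CPM of summed astrocyte counts (y axes) per library (x axis) for 8 genes of surface and fibrous astrocytes, with Poisson 95% intervals for counting error. Gfap stood at 60.7 and 63.3 CPM in the Lama5 knockout and at 283 CPM or more in the 5 other libraries, and Myoc had 0 counts in the Lama5 knockout libraries.

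C4b, Lgals1 and Slc38a1 were also lower. The values of C4b rested on few counts, 52 and 56 in the WT libraries and 4 and 7 in the knockout libraries. C4b and Lgals1 passed the filter on low counts only through the WT libraries, where they are high. Their test values are thus given as a description. C4b, a complement component made by astrocytes, was at 57.9 and 55.9 CPM in the WT and 10.5 and 17.0 CPM in the knockout (log2 fold change -2.02; edgeR's quasi-likelihood test, adjusted p = 0.00284). Lgals1, a galectin, was at 52.4 and 62.9 CPM against 13.2 and 17.0 CPM (-1.92; edgeR's quasi-likelihood test, adjusted p = 0.00327). The glutamine transporter Slc38a1 was at 101 and 132 CPM against 44.8 and 51.1 CPM (-1.29; edgeR's quasi-likelihood test, adjusted p = 0.00315). The other lower genes that the naming rule gave were Rarres2 (-1.42), Elof1 (-1.35), Mmgt2 (-1.33) and Nrros (-1.24). Elof1 passed in 5 of 13 alternatives and Rarres2 in 7 of 14. Without cells that carried ependymal markers neither passed, at -0.88 and -0.41, and at a marker sum of 60 CP10k Rarres2 was at -0.18. Rarres2, Tmem212 and Ccdc153 belong to the ependymal markers. Tmem212 and Ccdc153 had 100 and 83 of their 128 and 104 WT counts in 1 WT library and 0 in the knockout, at least 17.7-fold and at least 14.4-fold lower. These bounds count UMIs, which came from 7 and 16 cells of the WT libraries for Tmem212 and 4 and 14 for Ccdc153. Both genes passed the filter on low counts through the WT libraries alone. Without cells that carried ependymal markers, an alternative added after seeing the data, 321 genes passed, Gfap and S100a6 among them.

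Lipid transport was the next group with several changes. Of 16 genes tested 6 fell and 0 rose, against 1.1% of all genes tested that fell, with a median log2 fold change of -0.30 against 0.00268. The count was 2 with at least 1000 genes and under 10% mitochondrial UMIs a cell, 3 without the 5% of cells with the most UMIs, 3 in cells of at least 1500 UMIs and 1, Clu, in thinned cells. Apoe, the lipoprotein of astrocytes, was at 14994 and 16507 CPM in the WT and 10038 and 11866 CPM in the knockout (-0.53; edgeR's quasi-likelihood test, adjusted p = 0.00126), and did not pass with at least 1000 genes a cell (-0.30; edgeR's quasi-likelihood test, adjusted p = 0.269). Clu (chromosome 14, 65968483 to 65981547 on GRCm38), which encodes the chaperone apolipoprotein clusterin, was at 2590 and 3028 CPM against 1485 and 1639 CPM (-0.85; edgeR's quasi-likelihood test, adjusted p = 4.70e-06) and passed in all 15 alternatives run. Mfge8, which bridges phagocytes to phosphatidylserine, was at 1528 and 1523 CPM against 968 and 974 CPM (-0.66). Fabp5 (-0.47), Prdx6 (-0.35) and Fabp7 made up the rest. In these genes the groups did not overlap.

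Of 12 endfoot genes tested 1 rose and 1 fell, and the median was -0.10. Over all genes tested 1.08% rose and 1.1% fell. Mlc1, a membrane protein of endfeet, was at 308 and 346 CPM in the WT and 169 and 197 CPM in the knockout (-0.84; edgeR's quasi-likelihood test, adjusted p = 0.00166). Dtna, the dystrobrevin that links dystroglycan to channels, was at 481 and 525 CPM against 709 and 650 CPM (0.43; edgeR's quasi-likelihood test, adjusted p = 0.0402). Dtna passed in 5 of 15 alternatives, not with DESeq2, and its value was 0.14 in thinned cells. The potassium channel Kcnj10 had a log2 fold change of -0.69 (edgeR's quasi-likelihood test, adjusted p = 0.0541). Dag1, the laminin receptor dystroglycan, was at 136 and 129 CPM against 127 and 134 CPM, with groups that overlap. Aqp4 was one of the genes that chose the cells, so its 1066 and 1065 CPM in the WT and 527 and 616 CPM in the knockout are given as a description. Of the other rule genes, also as a description, Slc1a2 was at 6876 and 6824 against 6936 and 6731 CPM. Gja1 was at 1694 and 1658 against 1414 and 1293 CPM, and Aldoc at 3107 and 3140 against 2347 and 2189 CPM. Among 11 laminin receptor and matrix genes tested 0 passed, and the integrins Itga6 and Itgb1 had values of -0.09 and -0.30.

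Transmitter uptake had 0 of 13 genes that passed, against 2.18% of all genes tested, with a median of -0.19. The glutamate transporter Slc1a3 was at 2486 and 2382 CPM against 2097 and 2301 CPM and glutamine synthetase Glul at 2658 and 2551 CPM against 2297 and 2170 CPM. Both had knockout libraries below the WT libraries without passing. Of 20 glycolysis genes only Gapdh passed (-0.41), although 15 of the 20 had both knockout libraries below both WT libraries, and the median was -0.34. Over all genes tested 1878 of 8118 lay apart in that way. Of 20 receptor genes, the AMPA receptor subunit Gria2 rose (1610 and 1647 against 2566 and 2104 CPM, 0.51) and Gpr37l1 fell (-0.46). With thinned cells the log2 fold change of Gria2 was -0.011.

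Secreted factors that act on vessels included 2 that fell of 15 tested, against 1.1% of all genes tested, with a median of -0.29. Igfbp2, an insulin-like growth factor binding protein, was at 188 and 201 CPM against 103 and 70.6 CPM (-1.18; edgeR's quasi-likelihood test, adjusted p = 0.000705). Ptn, the growth factor pleiotrophin, was at 2631 and 2564 CPM against 1677 and 1921 CPM (-0.53; edgeR's quasi-likelihood test, adjusted p = 0.00144). Vegfa, the main angiogenic factor, was at 611 and 553 CPM against 754 and 626 CPM (0.24; edgeR's quasi-likelihood test, adjusted p = 0.307), which the test did not place apart. Of 19 sterol genes Fdps fell (-0.79), of 18 synapse genes Sparcl1 fell (-0.56), of 16 antioxidant genes Prdx6 and Mt3 fell, and of 20 identity genes Id1 (-1.09) and Id3 fell. Of 20 immediate early genes Fos fell (1066 and 1289 against 781 and 572 CPM) and Jun rose (1273 and 1406 against 1830 and 1722 CPM). Of 14 heat shock genes 0 passed. Among genes raised in reactive astrocytes only 2 of the 13 shared by several injuries passed the filter, Gfap and Vim, and both fell; of the 2 tested A1 genes 0 passed, and of the 3 tested A2 genes Tm4sf1 fell. Of 6 interferon genes tested Ifitm3 fell.

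**Figure D5:**
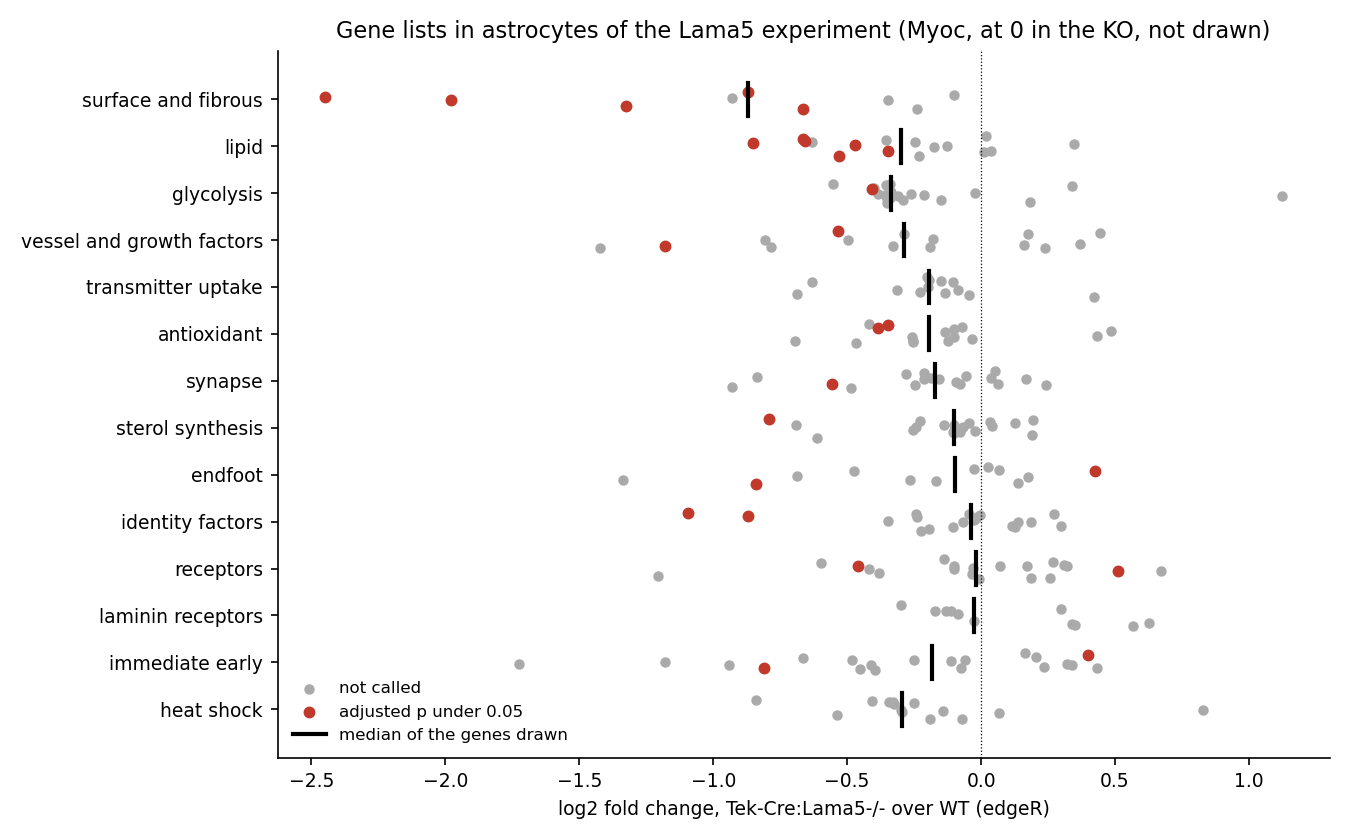
Each dot is the log2 fold change (x axis) of a gene in the Lama5 knockout over its WT, by gene list (y axis), in red where edgeR's adjusted p was under 0.05; black bars are medians of the genes drawn. The surface and fibrous list, without Myoc, lies left of the others, with Gfap at -2.45 and S100a6 at -1.98, and the glycolysis genes lie mostly below 0 with only Gapdh red.

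Of the genes that rose, a pair annotated as long non-coding RNAs were high in level. Gm26917 (chromosome 17, 39843013 to 39846341 on GRCm38) was at 1308 and 1229 CPM in the WT and 3877 and 3256 CPM in the knockout (1.48; edgeR's quasi-likelihood test, adjusted p = 6.12e-11), and passed in all 15 alternatives run. Gm42418, its neighbour on chromosome 17, rose from 2.73% and 2.88% to 4.57% and 5.25% of astrocyte UMIs. In the Lama4 experiment, where the median astrocyte held more UMIs, it took 0.838% and 0.795% in the WT libraries and 0.813% in the knockout. The part of depth and library quality in the values of this pair was not tested. Of protein-coding genes Dgkz, a diacylglycerol kinase, was at 14.5 and 19.96 CPM against 55.4 and 53.6 CPM (1.63; edgeR's quasi-likelihood test, adjusted p = 0.00829). Dgkz passed the filter on low counts only through the knockout libraries, where it is high, so its test value is a description. Dennd4a, an exchange factor for Rab GTPases, was at 42.4 and 58.9 CPM against 119 and 161 CPM (1.45; edgeR's quasi-likelihood test, adjusted p = 0.00035). The copper pump Atp7a (1.36), Tanc2 (1.34), the histone demethylase Kdm6a (1.29), Nbea (1.23) and huntingtin, Htt (1.05), also rose. Atp7a passed in 6 of 13 alternatives, Kdm6a and Nbea in 7 of 13 and Htt in 10 of 14, with a value for Htt of 0.17 in thinned cells. AC149090.1 (1.04), Fam193b (1.01) and Cep85l (1.00) completed the named set. Snap25 rested on 1 cell, which held 49 of the 51 counts of its knockout library. Ribosomal protein genes, a list added after seeing the data, took 3.11% and 3.16% of astrocyte UMIs in the WT and 2.47% and 2.72% in the knockout, and 77 of 80 had values below 0 with 4 called lower. Over all genes tested 4079 of 8118 had values above 0, and 1.1% were called lower.

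The WT pools of both experiments were compared to show how far pools of 1 genotype differ. The Lama5-control WT libraries serve in this comparison and in that of the knockout, so the results are not independent. The test called 1043 of 9753 genes (10.7%), 592 higher (6.07%) and 451 lower (4.62%) in the Lama5-control WT. Experiment, pool and batch cannot be told apart here. Of 20 immediate early genes 16 were higher, with a median of 1.75. Without the second Lama5-control WT library 13 were higher and the median was 0.98, and at a marker sum of 60 CP10k 13 were higher and it was 1.14. Fos was at 121 and 112 CPM in the Lama4-control WT and 1066 and 1289 CPM in the other (3.35; edgeR's quasi-likelihood test, adjusted p = 9.57e-12). Jun was at 152 and 143 CPM against 1273 and 1406 CPM.

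Sterol synthesis was also higher in the Lama5-control WT, in 13 of 19 genes against 6.07% of all genes tested, with a median of 0.56. The count was 8 with DESeq2, 8 with at least 1000 genes and under 10% mitochondrial UMIs a cell and 7 in thinned cells. Insig1, which holds the sterol sensor in the endoplasmic reticulum, was at 123 and 151 CPM against 323 and 313 CPM (1.23). Msmo1, a sterol oxidase of the pathway, was at 788 and 875 CPM against 1404 and 1276 CPM (0.71). Of 20 glycolysis genes 9 were lower and 2, Pdk4 and Pfkfb3, higher; 3 were lower with at least 1000 genes a cell and 4 in thinned cells and in cells of at least 1500 UMIs. Apoe was lower by the same comparison (log2 fold change -0.68, adjusted p = 2e-09 by edgeR's quasi-likelihood test), and so were Clu (-0.998), Mlc1 (-0.89), Hes5 (-0.98) and angiotensinogen, Agt (-1.85). For Apoe, Clu and Mlc1 the value between WT pools was further from 0 than that of the knockout. For Gfap it was -0.41 and for S100a6 0.45, nearer to 0 than the knockout values of -2.45 and -1.98. The Gfap value turned with the choice of cells: it was 0.94 with at least 1000 genes and under 10% mitochondrial UMIs a cell and 0.37 without the 5% of cells with the most UMIs. Without cells that held Myoc, Gfap was at 173 and 174 CPM in the Lama4-control WT and at 285 and 302 CPM in the other. Of the 48 lower knockout calls outside the rule that stood at over 2-fold the level of other cells, 18 were also called lower and 5 higher between the WT pools.

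In the Lama4 knockout, with 1 library, genes are given by a fixed rule of size with no test: a ratio of 1.5 or more at a pseudocount of 5 CPM, a knockout value outside both WT libraries, separate Poisson intervals, and 50 CPM or more in a group. Of 3576 genes 40 met it (1.12%), 9 higher (0.252%) and 31 lower (0.867%). Without the first WT library the count was 67 and without the second 99, since a gene then had to lie outside 1 WT library only. Of the 31 lower genes 9 encode ribosomal proteins, a list added after seeing the data. Ribosomal protein genes made up 80 of the 3576, and 71 of the 80 had log2 ratios below 0. Of all 3576 genes 2043 had ratios above 0. By sign alone, 29 of the 31 had values below 0 in endothelial cells and 24 in microglia of the same libraries. The share of all genes below 0 there was not counted. Some of the 29 were near the floor in endothelial cells, as Gfap at a mean of 1.18 CPM in the WT and 0.865 CPM in the knockout (-0.077). In astrocytes Gfap was at 434 and 475 CPM in the WT and 283 CPM in the knockout (log2 ratio -0.67). Without the cells that held Myoc it was at 173 and 174 CPM against 101 CPM. Mt3, a zinc-binding metallothionein of astrocytes, was at 3566 and 3148 CPM against 2113 CPM (-0.67). Fxyd6, a regulator of the sodium pump, was at 106 and 116 CPM against 57.4 CPM (-0.89), and the kinase Brsk2 at 50.1 and 52.4 CPM against 26.8 CPM. The mitochondrial gene mt-Nd3 was at 1057 and 749 CPM against 444 CPM (-1.02) and Ndufa3, of the same respiratory complex, had a ratio of -0.87. AC160336.1 (-1.08) and 6330403K07Rik (-0.97) were lower as well. The haemoglobin genes Hbb-bs and Hba-a1 met the rule, and for Hbb-bs 1 cell of 1 WT library held 3278 of that library's 4021 counts.

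Higher in the Lama4 knockout were Cklf (0.70), Enpp5 (0.65), Gm47423 (0.70) and Lmcd1 (0.68), with 63.3 to 95.4 CPM in the knockout. Ttr, Enpp2, 1500015O10Rik, Mgp and Slc38a2 also met the rule and stood under 0.5 of their level in other cells. For Mgp 1 cell held 220 of the 277 counts of the knockout library, and without those counts its level was 30.6 CPM, below the 35.9 and 40.3 CPM of the WT libraries. Ttr was at 180 and 321 CPM in the WT and 1279 CPM in the knockout. The part of choroid plexus RNA in these values was not tested. The lists of endfoot, uptake, sterol, lipid, vessel and synapse genes had 0 genes that met the rule, of 10, 12, 17, 16, 9 and 15 at the level. For instance Apoe was at 25107 and 26047 CPM in the WT and 27565 CPM in the knockout, and Slc1a3 at 3082 and 3177 CPM against 3297 CPM. Over all genes 1.12% met the rule, so 0 in lists of these sizes is no result about them. Lists with lower genes included heat shock (Hspa1a and Hspa1b of 11), antioxidant (Mt3 of 13) and surface and fibrous genes (Gfap of 9).

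Variation among single astrocytes was described within each library. After thinning to 1500 UMIs, 2937 genes were ranked by the Fano factor, the variance divided by the mean. Malat1, a nuclear RNA, led with 63.8 to 87.5 over the 7 libraries. Next were Cst3, cystatin C, at 9.90 to 14.1 and Apoe at 7.85 to 18.4. Gm42418, Gm26917, Fos and 4 genes of the mitochondrial genome, mt-Atp6, mt-Co3, mt-Co1 and mt-Co2, made up the rest of the top 10. Malat1 counts per thinned cell averaged 151 to 230 and those of Fos 0.101 to 1.62.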

How the data were processed

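Single-cell suspensions were made per the labels' protocols by mincing, digestion with papain, DNase and Liberase, and removal of myelin, and libraries with the Chromium 3' v3 kit. The authors deposited UMI counts that are not normalised, a matrix of genes by barcodes, written by Cell Ranger 3.1.0 per the file headers; the submitters' processing notes name mm10 and Seurat 3.1. No doublet caller was run. A barcode was kept at 500 or more detected genes and less than 15% of UMIs from mt- genes. The members and gene lists were chosen with earlier results of these data known. Of 31053 gene IDs 30934 matched GENCODE M21 on GRCm38; promoters are from RefSeq (GRCm38.p6).

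Counts were summed per library over the astrocytes, which gave 379176 to 1865427 UMIs a library, and tested with edgeR 4.0.16 (quasi-likelihood test, TMM, filterByExpr) in R 4.3.3; DESeq2 1.42.0 was an alternative. The code was tested on simulated counts. A group has 2 libraries from 1 pool, so low counts limit the precision: intervals (exact binomial or Poisson, 95%) cover counting error only. Endothelial cells were taken by the same marker sums (27766 cells). Named genes were the 12 higher and 12 lower called genes with the largest change, with groups apart, 50 CPM or more in a group and at least 0.5 of the level in other cells; for the Lama4 knockout the 8 higher and 8 lower likewise (4 higher met it); the 15 with the highest ratio to other cells; the 10 with the highest Fano factor; and genes of the lists as examples.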

Additional observations from a re-analysis of the deposited data

Results flagged for a closer look

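Some results differed between astrocytes and endothelial cells of the same libraries in the Lama5 experiment, by edgeR's quasi-likelihood test of the interaction at an adjusted p under 0.05. The change in astrocytes was lower than in endothelial cells for Lgals1 (by -2.51 on the log2 scale), S100a6 (-2.04), Rarres2 (-1.94), Slc38a1 (-1.83), Nrros (-1.45) and Elof1 (-1.33). It was higher for Snap25 (2.94), Dgkz (1.82), Kdm6a (1.31), Nbea (1.14), Htt (1.13), Cep85l (1.06), Gm26917 (1.05), Fam193b (1.05), Dennd4a (0.92) and AC149090.1 (0.68). DESeq2 called 2 genes in this interaction, S100a6 and Sorcs2, and 459 at an unadjusted p under 0.05.

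The share of astrocytes moved in opposite directions in the 2 knockouts, by -1.24 percentage points in the Lama5 knockout and by 1.02 points in the Lama4 knockout. The difference between these was not tested. The second was -0.650 points with astrocytes that carried markers of other types left out and all kept cells still in the denominator.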

How the results depend on the processing

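In the Lama5 knockout 177 genes passed. The count was 59 with DESeq2, which gave no adjusted p for 7082 genes, 335 without a filter on low counts, 72 at a marker sum of 60 CP10k, 336 without cells carrying markers of other types, 36 with at least 1000 genes and under 10% mitochondrial UMIs, 76 without the 5% of cells with the most UMIs, and 9 in thinned cells. Added after seeing the data, it was 321 without ependymal cells and 54 in cells of at least 1500 UMIs. Leaving out a library gave 70 to 341. The replicate block gave 347; library numbers did not pair the samples (r = 0.0178 and -0.022), and it turned no named gene. Between WT pools the count fell from 1043 to 323 with DESeq2, 449 with at least 1000 genes and 271 in thinned cells; leaving out a library gave 886 to 1042. The interaction gave 258, with 2 in DESeq2, 168 at a marker sum of 60 CP10k, 58 with at least 1000 genes, 28 without the 5% of cells with the most UMIs, 60 in cells of at least 1500 UMIs and 40 to 193 without a library. The Lama4 count was 67 to 99 without a WT library. The Lama5 share difference stayed between -0.960 and -1.50 points. The Lama4 one was 1.33 in cells of at least 1500 UMIs and -0.650 with astrocytes carrying other markers left out. That last alternative left all kept cells in the denominator for both knockouts. Of 664 repeats of 47 called genes that had an adjusted p, 487 passed again, 174 did not and 3 turned: Fabp7 (0.032 with at least 1000 genes), Gria2 (-0.011 thinned) and Mt3 (0.015 thinned). Clu, Gm26917, Gm42418 and Id3 passed in all 15, and Tm4sf1 in the 6 that gave it an adjusted p. Gfap between WT pools was 0.94 with at least 1000 genes and 0.37 without the 5% of cells with the most UMIs. The cause was not tested. Depth limits the Lama5 knockout, with 379176 and 410653 astrocyte UMIs.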
